A study of Rattus norvegicus with 12 samples.

Results

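The genes described here encode the subunits of oxidative phosphorylation. They were taken by name from the deposited count table: rows whose symbol starts with Mt-, and rows named as nuclear subunits of complex I (Ndufa, Ndufb, Ndufc, Ndufs and Ndufv, without the Ndufaf assembly factors), complex II (Sdha to Sdhd), complex III (Uqcr), complex IV (Cox4 to Cox8) and complex V (Atp5). The names gave 114 of the 30562 rows of the table, 13 of them encoded by mitochondrial DNA and 101 by nuclear DNA. Of the 101 nuclear rows, 46 belonged to complex I, 4 to complex II, 10 to complex III, 19 to complex IV and 22 to complex V. By symbol, 97 of the 114 rows were subunits, 14 were pseudogenes and 3 were paralogs, and 95 rows had enough counts to be tested. Of the 19 others, 11 were at 0 in all 12 samples and the rest, among them Cox7a2, Atp5f1e and Atp5me, held at most 5 counts in any sample.

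The samples were poly(A) RNA libraries from rat (Rattus norvegicus) sciatic nerve stumps, 3 each from control stumps (Control), stumps with a cone-like conduit labelled CC4:2, stumps with a conduit of another gradient labelled CC4:4, and a 4:2 group that also received verteporfin (VP4:2). Verteporfin keeps YAP, a coactivator that responds to mechanical force, from binding its TEAD partners. Strain, age, sex, the time of sampling, the meaning of the numbers 4:2 and 4:4 and what the control stumps received are not stated in the labels. Whether the 3 samples of a group are from 3 animals is not stated either, so p-values measure only the spread among these samples, and that spread may be technical. Replicates 1 and 2 of every group were sequenced on a NovaSeq X Plus and replicate 3 on a DNBSEQ-T7. The series asked which gene changes accompany pain relief by the conduits and, with the compound, what YAP does.

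Oxidative phosphorylation passes electrons from NADH through complex I, and from succinate through complex II, to complex III, cytochrome c and complex IV, and the proton gradient built on the way drives ATP synthesis in complex V. Mitochondrial DNA encodes a few hydrophobic core subunits of complexes I, III, IV and V, while all other subunits, among them the whole of complex II, are nuclear and imported. In peripheral nerve, Schwann cells and axons depend on mitochondria for their upkeep, and the immune cells that enter an injured nerve shift between oxidative and glycolytic metabolism.

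Libraries held 13763093 to 18632300 counts and 17565 to 17988 detected genes. Markers of several cell types differed between the groups compared below. Against Control, CC4:2 had 12 of 12 myelin and Schwann cell markers called higher, as were 8 of 8 adipocyte markers. In the same comparison 7 of 10 macrophage, 6 of 7 tested neutrophil, 8 of 8 B and plasma cell and 7 of 7 T and NK cell markers were called lower. The other tested neutrophil marker, Mpo, was called higher, at 0.900, 1.09 and 0.969 CPM in Control and 2.07, 14.7 and 11.1 in CC4:2. The summed level of 12 myelin and Schwann cell markers was 15330 to 39380 CPM (counts scaled to one common library size, after TMM scaling) in CC4:2 and 13880 to 20730 in VP4:2, against 579.6 to 5231 in Control and 3034 to 3863 in CC4:4. For 10 macrophage markers the sums were 2089 to 2518 in CC4:2, 6472 to 9760 in VP4:2, 7796 to 13870 in Control and 6746 to 8105 in CC4:4. For 8 neutrophil markers they were 15.51 to 23.41 in CC4:2, 18.47 to 23.04 in VP4:2, 257.1 to 515.6 in Control and 262.1 to 685.9 in CC4:4. For 8 markers of B and plasma cells they were 110.9 to 300.4 in CC4:2, 447.4 to 1328 in VP4:2, 984.5 to 7510 in Control and 2812 to 6113 in CC4:4. The 8 adipocyte markers summed to 1152 to 3197 in CC4:2, 1509 to 3082 in VP4:2, 478.2 to 627.0 in Control and 465.4 to 1963 in CC4:4. The 7 T and NK cell markers found summed to 9.847 to 36.5 in CC4:2, 60.34 to 72.33 in VP4:2, 210.3 to 284.4 in Control and 165.8 to 274.8 in CC4:4. The Schwann cell marker S100b was present in every library, at 14.11 CPM or more. Control replicate 1 was lowest in the myelin sum (579.6 CPM), and CC4:2 replicate 2 was highest in the sum of the 10 skeletal muscle markers found (12320 CPM). In bulk tissue, fewer cells of a type and less RNA per cell cannot be told apart, and the part of these differences in cell type markers in the results below was not tested.

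As shares of counts, not corrected for gene length, the 13 mitochondrially encoded members held several percent of each library and the nuclear ones under 1%. The mitochondrially encoded members held 4.51%, 3.53% and 4.53% of the counts in Control replicates 1 to 3, 3.49%, 3.84% and 3.99% with CC4:4, 3.92%, 3.43% and 4.60% with VP4:2, and 3.89%, 1.96% and 3.25% with CC4:2. CC4:2 replicate 2 was the lowest of the 12 samples, replicate 3 lay just below the range of the other groups and replicate 1 inside it. The means were 4.19% ± 0.57 (SD, n = 3) in Control, 3.77% ± 0.26 with CC4:4, 3.98% ± 0.59 with VP4:2, and 3.04% ± 0.98 with CC4:2, and without CC4:2 replicate 2 the last was 3.57%. The 101 nuclear rows together held 0.55% ± 0.093 in Control, 0.56% ± 0.017 with CC4:4, 0.67% ± 0.060 with VP4:2, and 0.52% ± 0.033 with CC4:2. Their 3 values in VP4:2 (0.715%, 0.602% and 0.694%) lay above those of CC4:2 (0.554%, 0.489% and 0.531%) and of CC4:4 (0.577%, 0.557% and 0.544%), and overlapped those of Control (0.646%, 0.461% and 0.536%).

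**Figure D1:**
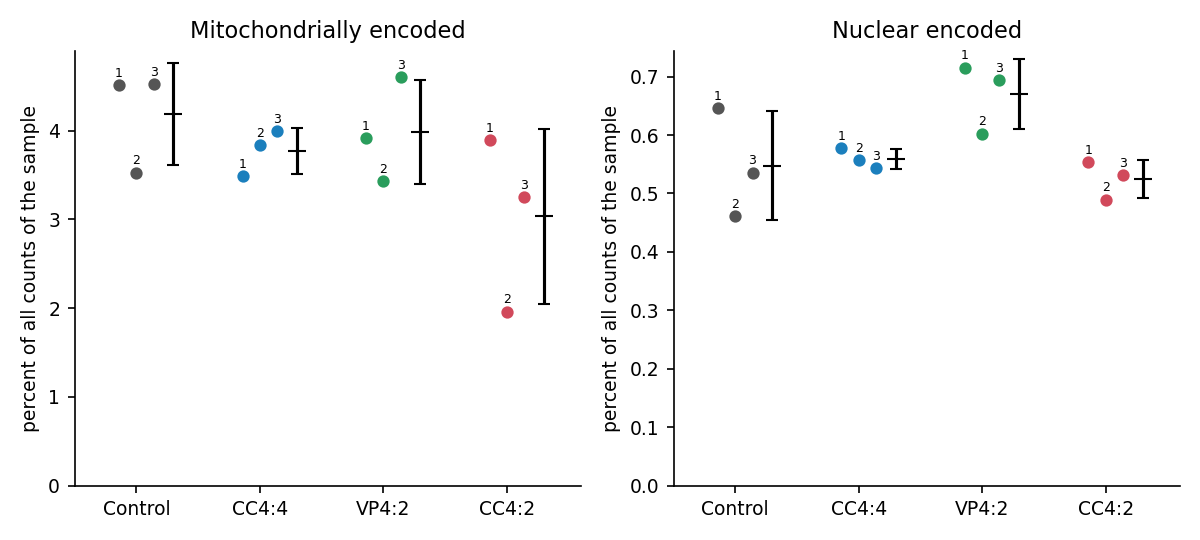
Share of all counts of a sample held by the mitochondrially encoded rows (left) and the nuclear rows (right), in percent, for the 4 groups. Points are samples numbered by replicate and the bars beside them are means with SD (n = 3). CC4:2 replicate 2 is lowest on the left at 1.96%, and the 3 VP4:2 samples lie above the 3 CC4:2 samples on the right.

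The comparison of CC4:2 with Control asked how the 4:2 conduit changed the stump. Subunits of the respiratory chain and of ATP synthase were mostly lower in CC4:2, with a median log2 fold change of -0.465, while Sdha of complex II was higher. The edgeR quasi-likelihood test called 39 of the 95 tested members lower and 2 higher at an adjusted p under 0.05. Over all 15712 tested genes it called 23.2% lower and 20.3% higher, and the median log2 fold change of all genes was -0.045. Fold changes were below 0 for 82.1% of the members and for 52.3% of all genes. The lower rows comprised 3 of 13 mitochondrially encoded members, 14 of 39 nuclear rows of complex I, 1 of 4 of complex II, 4 of 8 of complex III, 8 of 15 of complex IV and 9 of 16 of complex V. Class medians ran from -0.125 for complex II and -0.32 for nuclear complex I to -0.66 for nuclear complex IV and -0.85 for mitochondrially encoded complex IV.

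**Figure D2:**
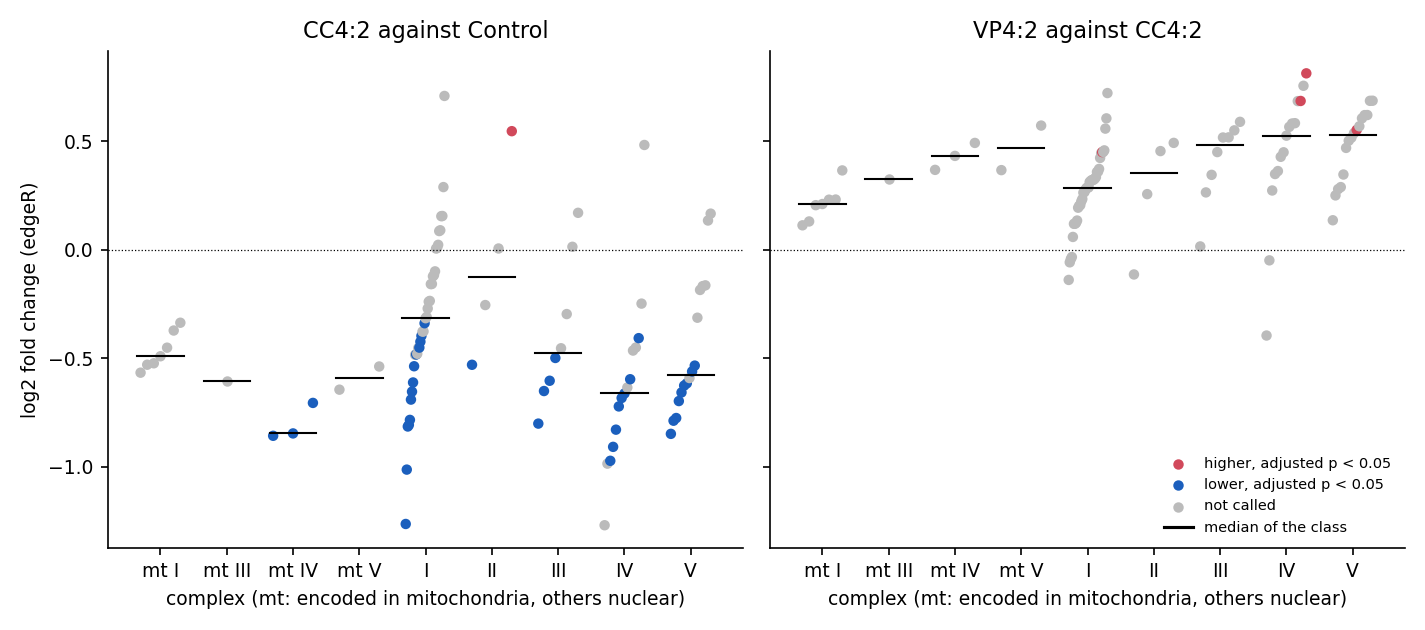
Log2 fold change of each tested member (points) for CC4:2 against Control and VP4:2 against CC4:2, by complex and genome of origin, with the median of each class as a horizontal line. Blue points passed the edgeR test as lower (39 on the left, 0 on the right) and red points as higher (1 on the left, 4 on the right), and 1 nuclear row of complex I is not drawn.

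These calls depended on scaling and on single libraries. Scaling by library totals alone moved the median of all genes to 0.16 and left 5 members higher and 10 lower, with the members' median at -0.27. Of all 15712 genes it called 4278 higher and 2511 lower. Relative to the median of all genes the members stood at -0.42 with TMM and -0.43 with totals. Without CC4:2 replicate 2 the test called 19 members lower, without CC4:2 replicate 3 24, without Control replicate 1 24 and without Control replicate 3 23. Over all genes these fits called 2996 of 15967, 3195 of 15959, 3672 of 15975 and 2797 of 15938 lower. In the 8 NovaSeq samples 1 member was higher and 5 were lower, where 1518 and 1704 of 15800 genes were. The 6 samples of the compared groups alone gave 1 and 13, where 2137 and 2226 of 15190 genes were called. The members' share of lower calls was below that of all genes in the NovaSeq and totals-only fits. It was near that share with only the compared groups. The 4 DNBSEQ samples, 1 per group, allow no test. All 41 called members kept their direction in every setting, 19 kept their call in each fit that left out 1 library, and 6, among them Ndufa1, Ndufa3, Uqcrh, Cox5a and Cox7b, kept it in every setting run.

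Of the 13 mitochondrially encoded members 3, the core subunits of cytochrome c oxidase, passed the edgeR test, a share near the 23.2% of all genes called lower. Mt-co1, which carries the oxygen-reducing center, measured 15600, 13450 and 16930 CPM in Control and 10600, 6142 and 8818 in CC4:2. The groups did not overlap, and CC4:2 replicate 2 was lowest. The log2 fold change was -0.85 ± 0.25 (SE; adjusted p = 0.0206). Mt-co2, which takes electrons from cytochrome c, went from 5252, 4167 and 5382 to 3443, 1821 and 2903 CPM (-0.86 ± 0.26, adjusted p = 0.0216), again without overlap. Mt-co3, the third subunit of the core, measured 7773, 5661 and 7472 CPM in Control and 5477, 2934 and 4403 in CC4:2 (-0.71 ± 0.26, adjusted p = 0.0488). Without CC4:2 replicate 2 their adjusted p was 0.0717, 0.064 and 0.151. The calls of Mt-co1 and Mt-co2 were also lost without Control replicate 3, that of Mt-co1 without CC4:2 replicate 3, and that of Mt-co3 without any of Control replicates 1 and 3 and CC4:2 replicate 3. In the NovaSeq samples alone the log2 fold changes were -0.78, -0.83 and -0.66, none of them called. The other mitochondrially encoded rows overlapped between the groups. Mt-cyb of complex III had a log2 fold change of -0.60 ± 0.27 (adjusted p = 0.0891), Mt-atp6 and Mt-atp8 of complex V -0.65 and -0.54, and the 7 Mt-nd rows of complex I -0.57 to -0.34. Libraries were selected for poly(A) RNA, and total mitochondrial RNA was not measured.

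Complex I has a hydrophilic arm in the matrix, made of the NADH-binding N part and the quinone-binding Q part, and a membrane arm (P part) with the proton channels. Nuclear subunits not assigned to the N or Q part were all counted with the membrane arm. Among them was Ndufa9, which lies at the joint of the arms and was called lower. Of the members so placed in the membrane arm, 11 of 21 tested were called lower in CC4:2 than in Control. Their median log2 fold change was -0.45, and 19 were below 0. In the N part 1 of 8 (Ndufa2, -0.81 ± 0.16, adjusted p = 0.00304) was lower and the median was 0.05, and in the Q part 0 of 6 were lower and the median was -0.11. Over all genes 23.2% were called lower, and the difference between the arms was not tested. The rows called lower in nuclear complex I were Ndufa1, Ndufa2, Ndufa3, Ndufa9, Ndufa13, Ndufb2, Ndufb3, Ndufb5, Ndufb6, Ndufb9, Ndufb11, Ndufs5 and the pseudogene rows Ndufs5-ps2 and Ndufv3-ps1. Ndufa1, a small membrane arm subunit needed for assembly, measured 87.9, 80.5 and 82.5 CPM in Control, 66.5, 93.6 and 75.5 with CC4:4, 54.0, 46.0 and 51.7 with VP4:2, and 44.1, 37.6 and 42.5 with CC4:2. Its levels in both 4:2 groups lay below all samples of the other groups, and those of CC4:2 below those of VP4:2. The fold change against Control was -1.01 ± 0.14 (adjusted p = 0.000319), the largest among members called lower other than the pseudogene row Ndufv3-ps1 (-1.26 ± 0.40, adjusted p = 0.0257, at 1.57, 2.73 and 2.10 CPM in Control and 0.688, 1.07 and 0.888 in CC4:2). By contrast Ndufs1, the iron-sulfur subunit of the N part with the most redox centers, measured 71.0, 73.5 and 85.0 CPM in Control and 79.0, 72.4 and 79.0 in CC4:2 (0.01 ± 0.10, adjusted p = 0.97), and Ndufv1, which binds NADH, 80.1, 60.5 and 72.3 and then 75.8, 87.8 and 73.7 (0.16 ± 0.12, adjusted p = 0.324).

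Complex II, the succinate dehydrogenase that links the tricarboxylic acid cycle to the respiratory chain, has no mitochondrially encoded subunit, and its catalytic pair Sdha and Sdhb moved in opposite directions. Sdha, the flavoprotein that oxidizes succinate, measured 117, 129 and 132 CPM in Control, 127, 118 and 128 with CC4:4, 176, 170 and 165 with VP4:2, and 175, 212 and 166 with CC4:2. Both 4:2 groups lay above all samples of Control and CC4:4 and overlapped each other. CC4:2 was higher than Control by 0.55 ± 0.12 (adjusted p = 0.00479) and higher than CC4:4 by 0.57 ± 0.12 (adjusted p = 0.00447), and both calls held with each library left out. Sdhb, the iron-sulfur partner of Sdha, measured 91.5, 69.8 and 79.7 CPM in Control and 62.8, 54.0 and 50.1 in CC4:2 without overlap (-0.53 ± 0.13, adjusted p = 0.00792). The membrane anchors were not called, with log2 fold changes of 0.01 ± 0.14 for Sdhc and -0.25 ± 0.13 for Sdhd.

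In complex III the lower rows were Uqcrh, Uqcrfs1, Uqcrq and Uqcr10. Uqcrh, the acidic hinge protein that guides cytochrome c, measured 107, 74.9 and 88.7 CPM in Control and 55.9, 44.2 and 55.4 in CC4:2 (-0.80 ± 0.15, adjusted p = 0.00193). Uqcrfs1, the Rieske iron-sulfur protein, went from 94.4, 86.5 and 116 to 67.4, 75.3 and 67.7 CPM (-0.50 ± 0.12, adjusted p = 0.00732). The groups did not overlap in either gene. The large core proteins Uqcrc1 and Uqcrc2 were not called, at 0.17 ± 0.16 and 0.01 ± 0.11.

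Complex IV held the lowest median of the nuclear classes. Cox5a, a matrix-side subunit, measured 95.0, 61.9 and 90.3 CPM in Control, 75.3, 83.3 and 76.2 with CC4:4, 81.1, 68.3 and 82.1 with VP4:2, and 41.8, 45.2 and 44.7 with CC4:2. The 3 CC4:2 values lay below all 9 other samples, with a fold change against Control of -0.91 ± 0.15 (adjusted p = 0.0011). Cox7b, a small transmembrane subunit, fell from 93.8, 71.8 and 81.5 to 51.0, 39.3 and 48.7 CPM (-0.83 ± 0.17, adjusted p = 0.00291). Cox6b1, which joins the monomers of the dimer on the outer side, appears as a pair of rows with the same symbol, at -0.97 ± 0.21 (adjusted p = 0.00403) and -0.72 ± 0.17 (adjusted p = 0.00674). Reads can be divided between such rows, and their sum was called lower as well (-0.88, adjusted p = 0.00455). Ndufa4, now counted with complex IV, went from 59.2, 45.0 and 63.4 to 35.1, 30.4 and 40.3 CPM (-0.66 ± 0.17, adjusted p = 0.0104).

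**Figure D3:**
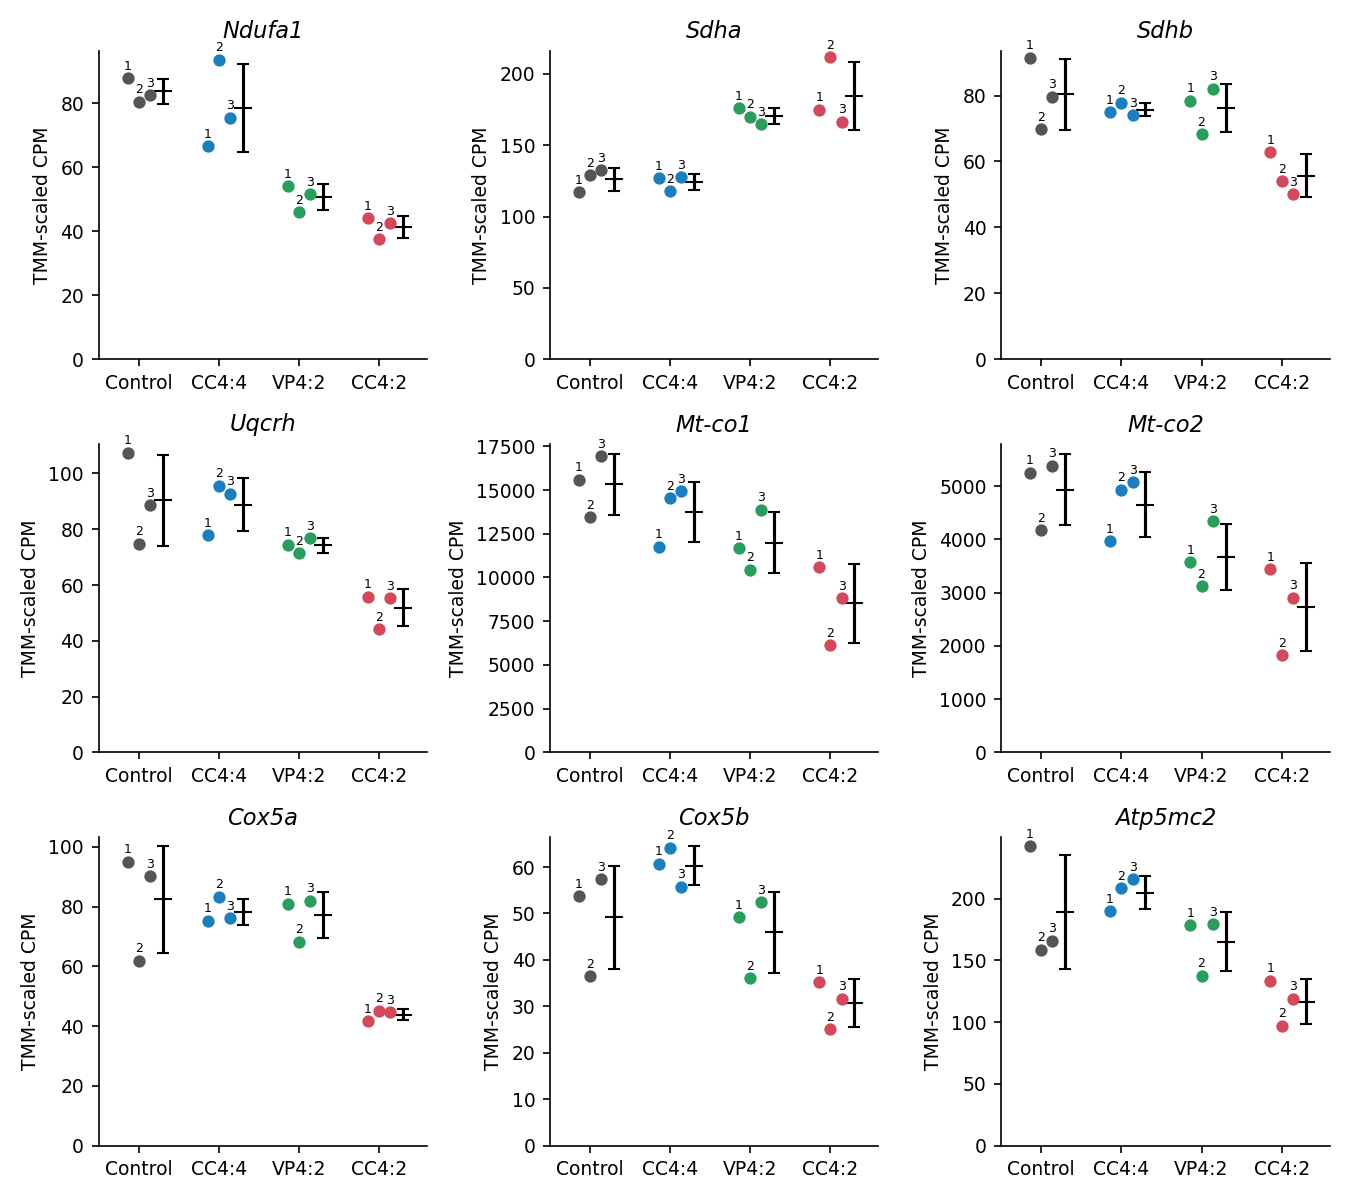
Level of 9 members in TMM-scaled CPM, by group, each axis from 0. Points are samples numbered by replicate, bars are means with SD (n = 3). In 8 panels CC4:2 has the lowest mean, and in the panel of Sdha both 4:2 groups lie above Control and CC4:4.

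Among tissue-restricted and inducible isoforms of complex IV, Cox6a2, Cox4i2 and Ndufa4l2 ranged widely within Control. Cox4i1, the common form of subunit 4, measured 199, 148 and 173 CPM in Control and 135, 124 and 134 in CC4:2 (-0.41 ± 0.15, adjusted p = 0.048), a call kept in 1 of 6 fits with a library left out. Cox4i2, a form linked to low oxygen, measured 8.94, 1.33 and 3.15 CPM in Control and 1.85, 1.92 and 1.83 in CC4:2 (-1.27 ± 0.56, adjusted p = 0.0901), and Control replicate 1 was the highest of all samples. Ndufa4l2, the low-oxygen relative of Ndufa4, showed the same sample apart, with 53.5, 6.56 and 5.90 CPM in Control, 18.4, 19.0 and 32.5 with CC4:4, 18.6, 15.5 and 19.8 with VP4:2, and 9.27, 11.5 and 12.7 with CC4:2. Its log2 fold changes against all 3 controls were -0.99, 0.08 and -0.30 for CC4:2, CC4:4 and VP4:2, and none passed the test. Without Control replicate 1 they were 0.85 (adjusted p = 0.0267), 1.91 (adjusted p = 0.0226) and 1.53 (adjusted p = 0.00447), which turned the direction for CC4:2 and VP4:2. Cox6a2, the form of heart and skeletal muscle, ranged from 0.056 to 31.9 CPM, both extremes within Control, while the common form Cox6a1 ranged from 69.1 to 145.5 CPM. The samples with the most Cox6a2 (Control replicate 3 at 31.9, VP4:2 replicate 1 at 25.7, CC4:2 replicate 2 at 20.6 and VP4:2 replicate 2 at 16.1 CPM) were also those with the highest sums of skeletal muscle markers, 8092, 6225, 12320 and 7550 CPM. Cox7a1, another muscle form, stood at 0.937 to 1.93 CPM and shared fractional counts with the overlapping gene Capns1 in all 12 samples. Cox8c, a testis form, was at 0 in all 12 samples.

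In ATP synthase the rows called lower were Atp5mc1 and Atp5mc2 of the c ring, Atp5pb, Atp5pd and Atp5pf of the stalk region, Atp5mg, Atp5mk and the pseudogene row Atp5mpl-ps1 of the membrane part, and the regulator Atp5if1. Of the 4 tested genes of the F1 head none was called lower, and their log2 fold changes ran from -0.185 to 0.167. Over all genes 23.2% were called lower, and the difference between the F1 head and the other parts was not tested. Atp5f1b, the catalytic beta subunit, measured 574, 425 and 581 CPM in Control and 547, 676 and 550 in CC4:2 (0.17 ± 0.17, adjusted p = 0.443). Atp5mc2, a gene for the proton-carrying c ring, measured 242, 159 and 166 CPM in Control and 134, 97.1 and 119 in CC4:2 (-0.70 ± 0.19, adjusted p = 0.0143), a call lost without CC4:2 replicate 2 (adjusted p = 0.0524). Atp5mc1, another gene for the same ring protein, fell from 49.2, 43.3 and 49.4 to 30.7, 22.1 and 25.9 CPM (-0.85 ± 0.16, adjusted p = 0.00173). Atp5if1, the inhibitor that stops ATP hydrolysis when respiration fails, went from 122, 77.7 and 77.9 to 69.0, 39.1 and 54.0 CPM (-0.78 ± 0.23, adjusted p = 0.0191), and lost its call without Control replicate 1 or without CC4:2 replicate 2.

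Against CC4:4, the conduit of another gradient, CC4:2 again had lower members. The test called 37 of 95 lower and 2 higher, among them Sdha, where it called 20.7% of all genes lower and 18.5% higher, and the members' median was -0.465 against 0.008 for all genes. Totals-only scaling moved the median of all genes to 0.22 and gave 4 higher and 9 lower, where 4174 and 2195 of 15712 genes were called. Cox5b, a zinc-binding subunit of complex IV, had the largest fall among called members, from 60.7, 64.2 and 55.8 CPM in CC4:4 to 35.2, 25.0 and 31.6 in CC4:2 (-0.98 ± 0.20, adjusted p = 0.00379). The other large falls were those of Ndufa1 (-0.92 ± 0.14), Cox7b (-0.91 ± 0.17), Cox5a (-0.83 ± 0.15) and Atp5mc2 (-0.81 ± 0.19), each with no overlap between the groups. Among mitochondrially encoded rows Mt-co2 alone was called (-0.77 ± 0.26, adjusted p = 0.0365, kept in 2 of 6 fits with a library left out), with Mt-co1 at an adjusted p of 0.0511. Without CC4:2 replicate 2 the test called 17 lower, without CC4:2 replicate 3 21 and without CC4:4 replicate 2 16. Over all genes these fits called 2681 of 15967, 2796 of 15959 and 2342 of 15947 lower. In the NovaSeq samples 1 member was called higher and 7 lower, where 1427 and 1825 of 15800 genes were. The members' share of lower calls was below that of all genes in the NovaSeq and totals-only fits. The CC4:2 samples are the same as in the comparison with Control.

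With all 12 samples, no member was called between CC4:4 and Control. The edgeR test called 0 of the 95 members and 0.0% of all genes (831 of 15712 at an unadjusted p under 0.05, and 0 members by DESeq2), and the median of the members was -0.013. At an unadjusted p under 0.05 there were 0 members. Without Control replicate 1 the edgeR test called 1 member higher and 1.85% of all genes, with 3199 genes at an unadjusted p under 0.05. The median of the members was then 0.151. The interval of such a difference is wide with 3 samples: for Mt-co1 the SE was 0.25 on the log2 scale.

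VP4:2 against CC4:2 asked what verteporfin changed within the 4:2 groups. Log2 fold changes were above 0 for 87 of 95 members, with a median of 0.35 against -0.03 for all genes, and 4 of 95 passed the edgeR test as higher and 0 as lower. That share of higher calls was near the 5.23% of all genes, and 0.999% of all genes were called lower. Cox5a rose by 0.81 ± 0.15 (adjusted p = 0.0106), from 41.8, 45.2 and 44.7 CPM to 81.1, 68.3 and 82.1. Atp5pb, a stalk subunit of ATP synthase, rose by 0.55 ± 0.13 (adjusted p = 0.0285), from 119, 110 and 110 to 180, 146 and 171 CPM. A Cox6b1 row (0.69 ± 0.17, adjusted p = 0.0401) and Ndufa9, at the joint of the arms of complex I (0.45 ± 0.11, adjusted p = 0.0416), were the others, all 4 without overlap between the groups. With the counts of both Cox6b1 rows summed, the difference was 0.63 (adjusted p = 0.0869). All 4 had been called lower in CC4:2 against Control, a comparison that uses the same CC4:2 samples. Calls were few without single libraries: 0 without VP4:2 replicate 3, 1 without VP4:2 replicate 1 or CC4:2 replicate 3, 2 without CC4:2 replicate 2, and 0 in the NovaSeq samples, while DESeq2 called 17 higher and 1 lower. Over all genes DESeq2 called 1322 of 16780 higher and 519 lower. The NovaSeq samples gave 194 higher and 8 lower of 15800 genes. Mitochondrially encoded rows were all above 0, from 0.11 to 0.57, and none was called. Sdha stood at -0.11 ± 0.12 (adjusted p = 0.618).

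Set against Control and CC4:4, VP4:2 differed in Sdha and Ndufa1. Sdha was higher than in Control by 0.43 ± 0.12 (adjusted p = 0.0326) and than in CC4:4 by 0.46 ± 0.12 (adjusted p = 0.0368), each lost when any 1 library was left out. Ndufa1 was lower than in Control by a log2 fold change of -0.73 ± 0.13 (adjusted p = 0.00748), kept with each library left out, and than in CC4:4 by -0.64 ± 0.13 (adjusted p = 0.0175), kept in 2 of 6. These were the only calls among the 95 members in either comparison, where the test called 9.3% of all genes higher and 9.57% lower against Control, and 5.7% and 5.51% against CC4:4. Totals-only scaling, which moved the median of all genes to 0.20 and 0.24, gave 11 higher and 1 lower against Control and 7 higher and 0 lower against CC4:4. Of all 15712 genes it called 2754 higher and 896 lower against Control, and 2261 and 561 against CC4:4. The medians of the members were -0.05 and -0.02.

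Promoters of 4 members that differed between the groups are shown because they carry, in the last 150 bases before the transcription start, the motifs of the factors best known for nuclear respiratory genes. Sequences are from RefSeq on GRCr8, which may not be the build of the counts, and are given 5′ to 3′ on the gene's strand. Capitals mark matches on either strand to GCGCANGCG, the core of the NRF1 site, or to CCGGAAG, the ETS core bound by NRF2 (GABP). Sdha, which rose in CC4:2, holds an NRF1 match at 2 places, and Atp5mc2, which fell, holds a palindromic run in which the matches of both strands overlap. Cox5b and Uqcrh, which fell, hold an ETS match each, in Uqcrh on the opposite strand.
Sdha (chr1:30764403-30764552, plus strand): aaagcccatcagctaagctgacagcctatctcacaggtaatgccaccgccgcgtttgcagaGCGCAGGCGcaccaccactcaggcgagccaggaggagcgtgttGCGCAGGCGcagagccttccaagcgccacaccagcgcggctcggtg
Atp5mc2 (chr7:135678219-135678368, minus strand): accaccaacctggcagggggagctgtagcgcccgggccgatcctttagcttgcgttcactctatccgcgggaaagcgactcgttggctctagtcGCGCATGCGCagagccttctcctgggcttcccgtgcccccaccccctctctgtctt
Cox5b (chr9:46417687-46417836, plus strand): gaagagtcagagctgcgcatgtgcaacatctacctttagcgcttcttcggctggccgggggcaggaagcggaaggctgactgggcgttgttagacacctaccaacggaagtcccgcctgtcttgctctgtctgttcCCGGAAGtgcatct
Uqcrh (chr5:134790883-134791032, minus strand): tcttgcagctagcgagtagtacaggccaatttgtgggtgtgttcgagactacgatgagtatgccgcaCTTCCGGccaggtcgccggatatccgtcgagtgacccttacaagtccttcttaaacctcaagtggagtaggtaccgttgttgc

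Of 76 tested nuclear subunit symbols, 67 had a RefSeq promoter. Within 250 bases before the start, 14 of the 67 (20.9%) held the NRF1 match, against 5.53% of 27457 RefSeq promoters, and 17 (25.4%) held the ETS match, against 7.74%. The YY1 motif AAGATGGCG was found in 1 of the 67 (1.49%, against 0.74%). The RefSeq set was not limited to genes with enough counts to be tested, as the members were, so these shares are not of like sets. Among the 29 promoters of members called lower in CC4:2 than in Control, 3 held the NRF1 match and 10 the ETS match, and among the 37 of members not called, 10 and 7 did. A match is a run of letters, not a measured binding site, and these counts were not tested.

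Genes outside the name rule that serve the respiratory chain are given by lists of related genes. Their counts were not tested against the 23.2% of all genes called lower and 20.3% called higher. Against Control, CC4:2 had 23 of 74 mitochondrial ribosomal protein genes lower and 0 higher, with a median of -0.38, among them Mrpl57 (-1.40 ± 0.19, adjusted p = 0.000307). Of 40 assembly factors 8 were lower and 2 higher (median -0.28), a share of lower calls no larger than that of all genes. Ndufaf7, a methyltransferase for complex I assembly, was lower by a log2 fold change of -0.81 ± 0.16 (adjusted p = 0.00262), and Uqcc1, for complex III, was higher by 0.42 ± 0.12 (adjusted p = 0.0172). Of 26 genes for mitochondrial DNA replication, transcription and RNA maturation 7 were lower and 2 higher (median -0.19), a share of lower calls near that of all genes, with the RNA stability factor Slirp lower (-1.09 ± 0.26, adjusted p = 0.0066) and the helicase Twnk higher (0.62 ± 0.17, adjusted p = 0.0126). A list of 13 genes held electron carriers, genes for coenzyme Q synthesis, and Cyc1, a complex III subunit outside the name rule. In it only Cycs, cytochrome c itself, was called, at 37.1, 27.6 and 37.2 CPM in Control and 22.8, 19.8 and 16.9 in CC4:2 (-0.78 ± 0.21, adjusted p = 0.0126). VP4:2 had 47.6, 29.1 and 38.5 CPM of Cycs, higher than CC4:2 by 0.95 ± 0.21 (adjusted p = 0.0231), a call kept in 2 of 6 fits with a library left out.

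Of 18 genes of the tricarboxylic acid cycle and pyruvate dehydrogenase 5 were higher in CC4:2 than in Control and 1 lower (median 0.165), where 20.3% of all genes were higher, among them Pdha1 (0.46 ± 0.11, adjusted p = 0.00548), the catalytic entry subunit of pyruvate dehydrogenase, and, lower, the isocitrate dehydrogenase Idh2 (-0.77 ± 0.15, adjusted p = 0.00213). Ppargc1a, the coactivator that drives mitochondrial gene programs, measured 0.056, 1.25 and 0.485 CPM in Control, 0.704, 0.407 and 1.30 with CC4:4, 3.95, 3.12 and 4.22 with VP4:2, and 6.57, 6.66 and 7.78 with CC4:2. The 4:2 groups lay above all samples of the other groups, and CC4:2 was higher than Control by 3.59 ± 0.69 (adjusted p = 0.00213). Ppargc1a and its partner Esrrg (3.44 ± 0.74, adjusted p = 0.00392) were the called genes among 15 nuclear regulators of mitochondrial biogenesis, whose median was 0.02. Esrrg rests on few counts, at 0.056, 0.234 and 0.081 CPM in Control and 0.424, 1.47 and 2.19 in CC4:2. In the list of fission, fusion and mitophagy genes 4 of 13 were higher and 2 lower (median 0.05), with the fusion gene Mfn2 at 0.90 ± 0.17 (adjusted p = 0.00181). In a list of uncoupling proteins, adenine nucleotide carriers and Vdac channels 2 of 7 tested genes were lower (median -0.07). They were Ucp2 (-0.95 ± 0.14, adjusted p = 0.000582), which is abundant in immune cells, and the carrier Slc25a5 (-0.76 ± 0.13, adjusted p = 0.00141).

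Gene size moved with the fold changes over the whole table, and the nuclear members are short genes. Of 15712 tested genes 13989 had a span in RefSeq by symbol, and 81 of the 82 nuclear members did, with medians of 24.6 kb over all genes and 7.17 kb over the members. With genes ranked by span and split into 10 equal classes, from the shortest to the longest class the median log2 fold change for CC4:2 against Control went from -0.28 to 0.52, and for VP4:2 against CC4:2 from 0.11 to -0.235. In the 3 shortest classes, which held 61 members, the members' medians were -0.54, -0.43 and -0.54, where all genes of those classes had -0.28, -0.19 and -0.125. In CC4:2 against Control, genes for cytosolic ribosomal proteins had a median of -0.48 (28 of 81 called lower). Those for the proteasome had a median of -0.32 (16 of 34 called lower). Of the members 39 of 95 were called lower, and of all genes 23.2%. Both lists were looked at after the values were known. The part of gene size in the results was not tested.

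**Figure D4:**
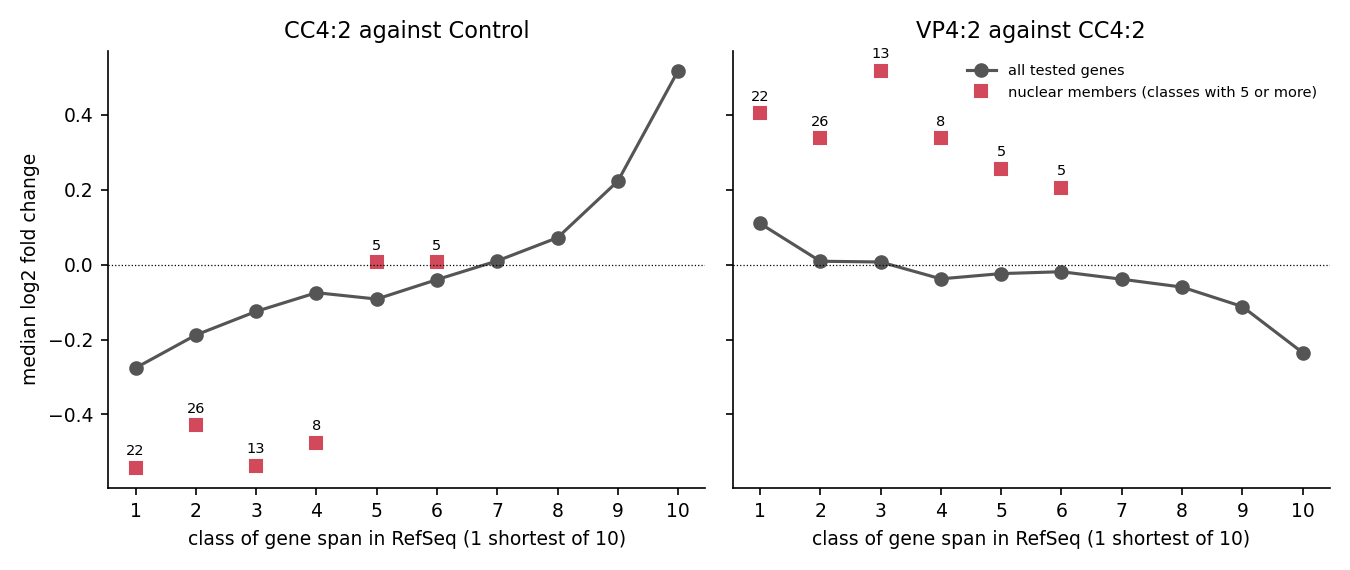
Median log2 fold change by class of gene span in RefSeq (10 classes, 1 the shortest), for all tested genes (line) and nuclear members (squares, with their number, in classes with 5 or more), in CC4:2 against Control (left) and VP4:2 against CC4:2 (right). In the 3 shortest classes the members lie below the line on the left (-0.54, -0.43 and -0.54), and above it on the right.

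Several members shared reads with another row, which bears on single genes. Fractional counts summed to whole numbers in all 12 samples for Ndufs5 with Ndufs5-ps2, Ndufs6 with Ndufs6l1 and Ndufa10 with Ndufa10l1, which are near copies. They did so for Cox4i1 with Emc8, Ndufb9 with Tatdn1, Ndufs7 with Gamt and Ndufa1 with Rnf113a1, which lie next to each other or overlap in RefSeq. The same held for the neighbours Ndufa4 and Phf14, and Ndufb6 and Smim27. It also held for Cox5a with LOC100361008 on another chromosome, and for the rows named Atp5mc1. Pairs named here are not all that were found. In these pairs the partner of Ndufa1 held a mean of 24.7 counts against 1028.9, that of Cox5a 80.4 against 1162.1, and that of Cox4i1 230.6 against 2697.8. Other partners held more than the member: that of Ndufs5 427.6 against 288.9, that of Ndufs6 244.5 against 179.4, and that of Ndufa4 927.7 against 808.8. Summing the near copies left 37 members lower and 2 higher in CC4:2 against Control.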

How the data were processed

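Poly(A) RNA-seq of 12 nerve samples was deposited by the authors as a table of expected counts per gene, the same in all 12 files, of which 9.44% to 11.12% of the values per sample were not whole. HISAT2, StringTie, RSEM and DESeq2 are named in the submitters' processing notes. Tool versions, the genome build and the annotation are not given in the sources used here.

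Expected counts were rounded, and genes with low counts were removed with filterByExpr. All 12 samples were fitted with edgeR 4.0.16 (quasi-likelihood, TMM scaling, 8 residual degrees of freedom, R 4.3.3), after a test on simulated data, and Benjamini-Hochberg adjustment ran over 15712 genes. An adjusted p under 0.05 was a call. The SE is the fold change over the root of F. Totals of 13763093 to 18632300 counts set the precision. DESeq2 1.42.0, filters, scalings, fewer samples, a replicate block and left-out libraries were alternatives.

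Members and lists were chosen with earlier results of these data known. Named by rule were mitochondrially encoded members, isoform pairs, Sdha to Sdhd, Atp5if1, the up to 5 largest called rises and falls per comparison with a mean of at least 1 CPM, and up to 2 called genes per list and direction. Other members were named after their values were seen. The 4367 rows without a symbol were kept in the fit, and 19 members were not tested (11 at 0, the others with at most 5 counts). RefSeq (GRCr8) gave promoters and gene spans. Results for some genes are not reported here.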

Additional observations from a re-analysis of the deposited data

How the results depend on the processing

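Counts of called members moved with the samples used and the scaling, while all members called in a comparison kept their direction in every alternative run. For CC4:2 against Control (41 called), fitting only the 2 groups gave 14, the NovaSeq samples 6, scaling by library totals 15, and leaving out 1 library 22 to 52. Of all genes, 43.48% were called in the main fit, 28.72% with the 2 groups, 20.39% in the NovaSeq samples and 43.21% with totals. For CC4:2 against CC4:4 (39), the NovaSeq samples gave 8, totals 13, and leaving out 1 library 18 to 39. Of all genes, 39.19% were called in the main fit, 20.58% in the NovaSeq samples and 40.54% with totals. For VP4:2 against CC4:2 (4), DESeq2 gave 18, the NovaSeq samples 0, and leaving out 1 library 0 to 4. Of all genes, 6.23% were called in the main fit, 10.97% by DESeq2 and 1.28% in the NovaSeq samples. For CC4:4 against Control (0), leaving out 1 library gave 0 to 1. For VP4:2 against Control (2), DESeq2 gave 6, no filter on low counts 1, only the 2 groups 1, the replicate block 1, the NovaSeq samples 0, totals 12, and leaving out 1 library 1 to 6. For VP4:2 against CC4:4 (2), DESeq2 gave 4, no filter 1, only the 2 groups 4, the replicate block 1, the NovaSeq samples 0, totals 7, and leaving out 1 library 0 to 1. Fewer samples are in the NovaSeq and left-out fits, and the cause of the other changes was not tested. The nuclear share of counts in CC4:4 was 0.586% without immunoglobulin genes and 0.559% with them. Ndufa4l2 changed direction: against Control, CC4:2 (-0.99) ranged from -1.39 to 0.85 with 1 library left out, CC4:4 (0.08) from -0.33 to 1.91, with -0.64 in the NovaSeq samples, and VP4:2 (-0.30) from -0.71 to 1.53, with 0.0084 under the replicate block. The highest values were those without Control replicate 1. Of 577 alternative values for 39 named results, these 7 included, 448 kept their direction and their side of the threshold, 120 lost their call and 2 gained one. Scaling by totals and summing copies were chosen after seeing the data. The replicate block left 41 members called in CC4:2 against Control, 42 against CC4:4 and 4 in VP4:2 against CC4:2. Samples of 1 number share a platform, and the correlations of their deviations over 18 pairs ran from -0.402 to 0.433, with 7 over 0.1, so the numbers were not taken as a pairing.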
